A study of Mus musculus with 6 samples.

Results

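RGS proteins (regulators of G protein signalling) end the signals of receptors that act through heterotrimeric G proteins. Their shared RGS box speeds up the hydrolysis of GTP by the G alpha subunit, which returns the G protein to its inactive form. In leukocytes the family is best known for setting how long a cell answers chemokines and other attractants, whose receptors mostly act through G alpha i. The genes described here are Rgs1, Rgs2, Rgs10, Rgs14, Rgs16, Rgs18 and Rgs19. They were taken by symbol from the platform annotation of the array, and they are 7 of 17 RGS genes and 7 of 10698 genes with a probe of their own symbol there. They have 11 probes, all measured on all 6 arrays.

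The samples were RAW 264.7 cells, a mouse macrophage line (the labels also write RAW 264.4), given 100 ng/ml lipopolysaccharide (LPS) together with 100 pM LPS-binding protein (LBP) for 2 h, and untreated RAW 264.7 cells cultured for the same 2 h. Total RNA of treated and untreated cells was hybridised together on 2-colour arrays, 3 with treated RNA in Cy5 and 3 with the dyes exchanged. Within each orientation the arrays carry the set numbers 1 to 3, and no label says whether the sets were separate cultures. The p-values therefore rest only on spreads between sets, which may be technical. The cells are 1 line in culture, and neither agent was given alone in these samples, so their separate effects cannot be told apart.

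All values are log2 ratios of treated over untreated cells, so 1 is a doubling and -1 a halving. Unless an array is named, a value is the mean of 3 sets ± SD, each set being the mean of its pair of dye-swapped arrays. "Rose" and "fell" mark genes past an adjusted p of 0.05 in limma, a linear model for arrays fitted over 11231 features (genes, or probes without a single symbol). The model draws each feature's variance toward one shared over all features. Its p-values and confidence intervals thus do not rest on the 3 sets of that feature alone. Ratios hold no transcript level, so the macrophage identity of the cells could not be checked on marker levels, and a change in RNA per cell cannot be told apart from a change in the make-up of the culture. The direction of the ratios was taken from the channel labels and the sign of textbook LPS-induced genes. These genes are therefore no separate check of it, only of whether the arrays share the same direction. Of 10 such genes, 8 were tested and all 8 were positive on 6 of 6 arrays, from 1.14 for Il6 to 3.98 for Il1b.

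Of the 7 RGS genes, Rgs16 and Rgs1 rose, Rgs14 fell, and Rgs2, Rgs10, Rgs18 and Rgs19 did not pass the threshold. Over all features 7.35% were called higher, 7.45% lower and 14.8% in either direction. The median of the 7 genes was -0.10, against -0.0041 over all features, and the members that passed did not share a direction. Among 9472 named genes, Rgs16 ranked 23 and Rgs1 82 from the highest ratio, and Rgs14 ranked 6 from the lowest.

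**Figure D1:**
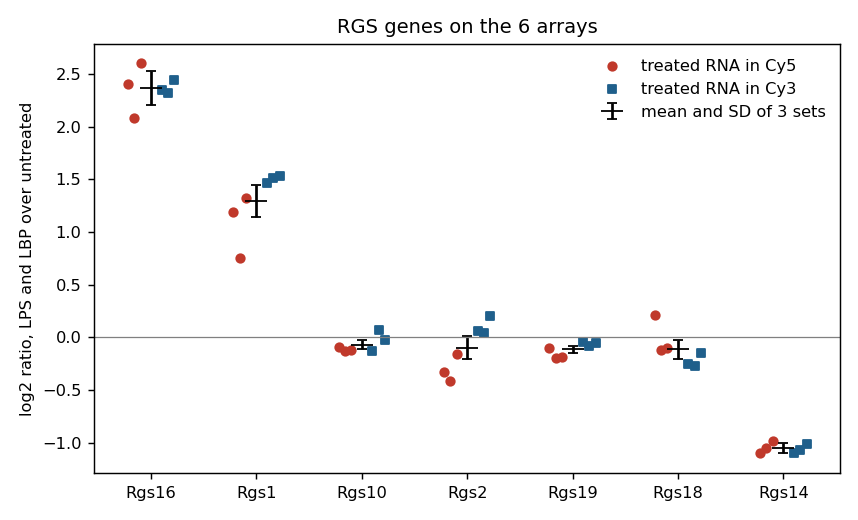
Log2 ratio of LPS and LBP over untreated cells (vertical axis) for the 7 RGS genes (horizontal axis), as circles for the 3 arrays with treated RNA in Cy5 and squares for the 3 arrays with it in Cy3, with the mean and SD of 3 sets as a black bar. Rgs16 lies between 2.08 and 2.60 and Rgs1 between 0.75 and 1.54, Rgs14 lies between -1.10 and -0.98, and the other genes lie within 0.42 of 0.

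**Figure D2:**
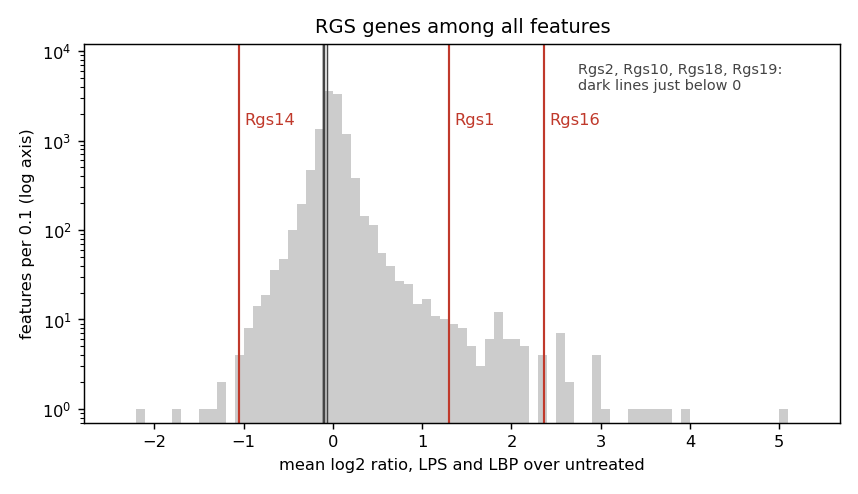
Number of features (vertical axis, log scale) by mean log2 ratio of LPS and LBP over untreated cells (horizontal axis, bins of 0.1), with the means of Rgs14, Rgs1 and Rgs16 as red lines and those of Rgs2, Rgs10, Rgs18 and Rgs19 as dark lines. Rgs16 at 2.37 stands far out on the right, Rgs14 at -1.05 near the left end, and the dark lines lie inside the main peak.

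Rgs16 encodes a small RGS protein that acts on G alpha i and G alpha q and is known in lymphocytes and monocytes as a brake on chemokine responses. Its ratio was 2.41, 2.08 and 2.60 on the arrays of sets 1, 2 and 3 with treated RNA in Cy5, and 2.35, 2.32 and 2.44 on those with it in Cy3. Every array showed a rise of over 4-fold, and the dye orientations overlapped. The mean was 2.37 ± 0.16 (n = 3 sets), a 5.16-fold rise with a 95% confidence interval of 2.20 to 2.53 on the log2 scale and adjusted p = 1.62e-05 by limma.

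The value of Rgs16 is the mean of 3 probes. Probe 16587 averaged 2.59 ± 0.15 (from 1.99 to 2.98 over the arrays), probe 12255 averaged 2.48 ± 0.09 (2.29 to 2.67) and probe 11002 averaged 2.02 ± 0.30 (1.54 to 2.37). All 3 were positive on 6 of 6 arrays. Probes 12255 and 11002 are annotated to the same GenBank record, and the part of the gene that each one matches was not used here. In a fit with each probe on its own, limma adjusted p ran from 2.17e-06 for probe 12255 to 5.84e-05 for probe 11002.

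The RefSeq promoter table (GRCm38.p6) held 4 of the 7 genes, Rgs16, Rgs2, Rgs10 and Rgs19, with 6 start sites. The 250 bases before the annotated start are printed for Rgs16, the gene that rose most, and for Rgs2, a related gene that did not pass the threshold. Bases that match a searched motif are in capitals. The window of Rgs16 is chr1:153740103-153740352 on the plus strand and that of Rgs2 is chr1:144004150-144004399 on the minus strand, both 5′ to 3′ along the gene.
Rgs16: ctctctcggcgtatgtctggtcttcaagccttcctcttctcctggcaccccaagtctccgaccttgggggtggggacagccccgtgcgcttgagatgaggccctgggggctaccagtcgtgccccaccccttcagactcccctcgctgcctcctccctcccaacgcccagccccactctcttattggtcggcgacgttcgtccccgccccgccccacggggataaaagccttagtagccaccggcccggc
Rgs2: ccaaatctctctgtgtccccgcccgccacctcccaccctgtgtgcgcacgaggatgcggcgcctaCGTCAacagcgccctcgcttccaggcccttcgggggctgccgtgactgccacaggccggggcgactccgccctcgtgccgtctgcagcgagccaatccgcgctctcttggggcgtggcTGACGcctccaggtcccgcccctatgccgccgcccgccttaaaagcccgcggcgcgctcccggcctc

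Both strands were searched for the κB consensus, the AP-1 site TGANTCA and the core of the cAMP response element TGACG. The window of Rgs16 held none of these letters, and neither did those of Rgs10 and Rgs19. Rgs2 held the cAMP element core at 2 places, 185 to 181 and 67 to 63 bases before the start. Of 32841 promoter windows of this length, 17.8% held that core, 7.25% the κB consensus and 6.75% the AP-1 site. The windows of Rgs16 and Rgs2 were 66.4% and 72.4% G and C, against a median of 52.4% over all windows. A match, or the lack of one in this window, is a description of letters and does not show binding.

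Rgs1 encodes another small RGS protein, which damps chemokine receptor signals in B cells and other leukocytes. Its ratio was 1.19, 0.75 and 1.32 on the arrays of sets 1, 2 and 3 with treated RNA in Cy5, and 1.46, 1.51 and 1.54 on those with it in Cy3. All 6 arrays were positive, with every Cy3 array above every Cy5 array and the array of set 2 in Cy5 the lowest. The mean was 1.30 ± 0.15 (n = 3 sets), a 2.46-fold rise (95% confidence interval 1.14 to 1.46 on the log2 scale, limma adjusted p = 0.000104).

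Its 2 probes had the same mean, 1.30, with an SD over sets of 0.19 for probe 15332 and 0.13 for probe 16174. The widest gap between them on any of the 6 arrays was that of set 2 with treated RNA in Cy5, where probe 15332 gave 0.48 and probe 16174 gave 1.03. The dye orientations averaged 1.09 for treated RNA in Cy5 and 1.50 for treated RNA in Cy3. Tested in limma, the mean ratio before the signs were turned, which holds what follows the dye, was -0.21 for Rgs1 with adjusted p = 0.228. By that test 0% of features were called, not even Gng3, which averaged -1.29 in Cy5 and 0.86 in Cy3 (adjusted p = 0.174). The lack of a call therefore says little about a dye effect. Rgs1 stayed past the threshold on the Cy5 arrays alone and on the Cy3 arrays alone.

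Rgs14 encodes a larger RGS protein. Besides its RGS box it carries Ras-binding domains and a GoLoco motif, which holds inactive G alpha i in its GDP-bound form. Its ratio was -1.10, -1.05 and -0.98 on the arrays of sets 1, 2 and 3 with treated RNA in Cy5, and -1.10, -1.07 and -1.01 on those with it in Cy3. The orientations differed by less than the sets did, and no array came near 0. The mean was -1.05 ± 0.05 (n = 3 sets), a 2.07-fold fall (95% confidence interval -1.16 to -0.94, limma adjusted p = 5.61e-05). It rests on 1 probe, number 11471. The protein-coding genes on either side of Rgs14 in the RefSeq annotation, Lman2 (-0.14, adjusted p = 0.13) and Slc34a1 (-0.10, adjusted p = 0.247), did not pass.

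**Figure D3:**
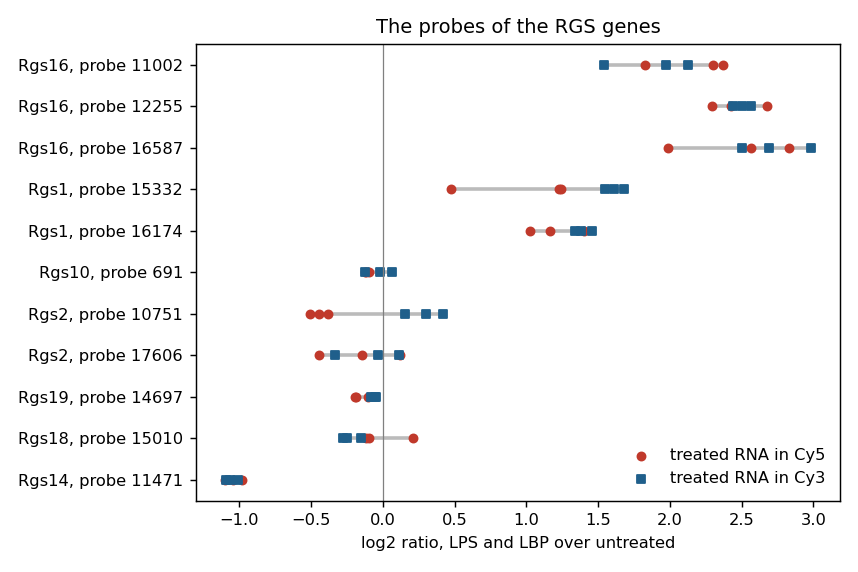
Log2 ratio of LPS and LBP over untreated cells (horizontal axis) on each array for the 11 probes of the 7 RGS genes (vertical axis), with circles for treated RNA in Cy5, squares for treated RNA in Cy3 and a grey line over the range of each probe. All probes of Rgs16 and Rgs1 lie right of 0, the probe of Rgs14 lies near -1.05 on every array, and probe 10751 of Rgs2 splits by dye, from -0.51 to -0.38 in Cy5 and from 0.16 to 0.42 in Cy3.

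The opposite movement of Rgs1 and Rgs16 against Rgs14 was taken within each set. Rgs16 exceeded Rgs14 by 3.48, 3.26 and 3.52 in sets 1, 2 and 3, a mean difference of ratios of 3.42 ± 0.14. Rgs1 exceeded it by 2.43, 2.19 and 2.43, or 2.35 ± 0.14. Both differences were positive on 6 of 6 arrays, with the smallest on any array at 1.80 for Rgs1 and 3.13 for Rgs16. An exact two-sided sign-flip permutation over the 3 sets gave p = 0.25 for each (0.25 adjusted over both), the smallest p that 3 sets allow. Rgs16 and Rgs1 were positive and Rgs14 negative on 6 of 6 arrays, so every difference had to be positive and that p was fixed. The permutation test therefore adds no support, and this design cannot take it past 0.05. The differences were many times the SD between sets, which only describes genes whose ratios were known beforehand. The rise of Rgs16 exceeded that of Rgs1 by 1.05, 1.07 and 1.09 in sets 1, 2 and 3, which is given as a description. These are differences between changes, and they give no order of transcript levels.

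Rgs2 encodes a small RGS protein that acts mainly on G alpha q. Its ratio was -0.33, -0.41 and -0.16 on the arrays of sets 1, 2 and 3 with treated RNA in Cy5, and 0.06, 0.04 and 0.21 on those with it in Cy3. The sign therefore went with the dye: all arrays of one orientation were negative and all of the other positive. The mean was -0.10 ± 0.11 (95% confidence interval -0.24 to 0.04, limma adjusted p = 0.323). Probe 10751 leaned to Cy3 on 6 of 6 arrays before the signs were turned. Probe 17606 did so on 3 of 6 arrays and averaged -0.12 ± 0.25, with set 2 at -0.39 and set 3 at 0.12.

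Rgs18 encodes an RGS protein known best from platelets and their precursors. It stood at 0.21, -0.12 and -0.10 on the arrays of sets 1, 2 and 3 with treated RNA in Cy5, and at -0.25, -0.27 and -0.15 on those with it in Cy3. One array, that of set 1 in Cy5, was positive and the other 5 negative. The mean was -0.11 ± 0.09 (95% confidence interval -0.24 to 0.01, limma adjusted p = 0.226).

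In the RefSeq annotation Rgs2, Rgs13, Rgs1, Rgs21 and Rgs18 follow each other directly among the protein-coding genes of chromosome 1, and Rgs16 lies elsewhere on that chromosome beside Rgs8. Within that row, Rgs1 rose while Rgs2 and Rgs18 did not pass, and the upper confidence limits of Rgs2 and Rgs18, 0.04 and 0.01, lay far below the lower limit of Rgs1, 1.14. Rgs13, Rgs21 and Rgs8 were not analysed here.

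Rgs19, also called GAIP, encodes an RGS protein that acts on G alpha i and binds membranes of the secretory pathway. It was negative on 6 of 6 arrays, with values of -0.10, -0.19 and -0.19 on the arrays of sets 1, 2 and 3 with treated RNA in Cy5 and of -0.05, -0.08 and -0.05 on those with it in Cy3. Over all features, 10.2% were negative and 8.93% positive on all 6 arrays. The mean of Rgs19 was small, -0.11 ± 0.03 (95% confidence interval -0.22 to -0.0022), and limma gave adjusted p = 0.17.

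Rgs10 encodes a short RGS protein known in microglia and macrophages as a restraint on inflammatory gene expression. Its ratio was -0.09, -0.12 and -0.12 on the arrays of sets 1, 2 and 3 with treated RNA in Cy5, and -0.13, 0.07 and -0.02 on those with it in Cy3. The mean was -0.07 ± 0.04 (95% confidence interval -0.18 to 0.04, limma adjusted p = 0.393). For Rgs2, Rgs10, Rgs18 and Rgs19, the intervals reached no further than -0.24 at the low end and 0.04 at the high end. Changes as large as those of Rgs16, Rgs1 or Rgs14 lay outside them. The intervals rest on the spread between 3 sets, which may be technical, drawn by limma toward a spread shared over all features. Signal over background is unknown. The intervals therefore cannot exclude a change that a probe failed to register.

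The other RGS genes had 22 probes for 10 genes, and 5 of these probes lacked a value on some array. Of 9 of these genes tested, 1 rose (Rgs3), 1 fell (Rgs11) and 7 did not pass, with a median of -0.01. The share called over all features was 14.8%. Rgs11, whose protein pairs with the G beta subunit Gnb5 and is known from the retina, stood at -0.59 ± 0.03, a 1.50-fold fall (limma adjusted p = 0.00051, negative on 6 of 6 arrays). Its 2 probes averaged -0.55 and -0.62 but differed on single arrays. Probe 12219 ran from -1.21 to 0.10 and was negative on 5 of 6 arrays, and probe 15870 ran from -0.90 to -0.25. The SD of 0.03 and the sign on every array are those of their mean. With only the arrays with treated RNA in Cy3, the adjusted p of Rgs11 was 0.0519.

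Rgs3 rose by 1.42-fold as a gene (0.50 ± 0.09, limma adjusted p = 0.00178, positive on 6 of 6 arrays), but its 4 probes fell into 2 pairs. Probes 6686 and 15410 averaged 0.98 ± 0.07 and 0.96 ± 0.18 and were positive on every array. Probes 11226 and 15159 averaged 0.11 ± 0.21 and -0.04 ± 0.13 and had both signs among the arrays. In the fit with each probe on its own, the adjusted p of the first pair was 6.25e-05 and 0.000345, and that of the second 0.452 and 0.729. The gene value is thus a mean of unlike probes. Each of the 4 probes is annotated to a GenBank record of its own, and the part of the gene that each one matches was not used here. With only the arrays with treated RNA in Cy3, the gene had adjusted p = 0.0532.

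Rgs9, of the same subfamily as Rgs11, stood at -0.20 ± 0.09 with limma adjusted p = 0.0501. It was past the threshold in 2 alternatives, with incomplete probes allowed (adjusted p = 0.0381) and with arrays centred on their median (0.0493), and it moved to -0.07 without the Cy5 array of set 1 and to -0.34 without the Cy3 array of set 1. The rest lay closer to 0: Rgs17 at 0.09, Rgs20 at 0.06, Rgs4 at 0.03, Rgs5 and Rgs6 at -0.01 and Rgs12 at -0.06, with adjusted p of 0.341 or more by limma. Rgs20 stood at 0.25 with zeros kept as ratios of 0 and at 0.27 with incomplete probes allowed, which bring in probe 2838, whose 1 value was 2.60. Rgs7 had 1 probe, measured on 5 arrays, and was not tested.

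Of the G alpha subunits on which RGS proteins act, 0 of 15 tested rose or fell by limma. The 15 ratios lay between -0.07 and 0.13, with 2 at an unadjusted p under 0.05. Over all features, 14.8% were called and 3150 of 11231 had an unadjusted p under 0.05. The G beta and gamma subunits also had 0 calls among 14 tested (4 at an unadjusted p under 0.05, from -0.27 to 0.15). The lowest was Gnb5 (-0.27 ± 0.16, limma adjusted p = 0.0517, negative on 6 of 6 arrays). Gng3 and Gngt2 were negative on every Cy5 array and positive on every Cy3 array, from -1.97 to 1.21 and from -1.58 to 1.31. Other proteins with an RGS box, such as axins and receptor kinases, had 0 of 7 (0 at an unadjusted p under 0.05, from -0.09 to 0.12), and the phospholipases C beta 0 of 2 (0 at an unadjusted p under 0.05).

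Among 3 GoLoco proteins and nucleotide exchange modulators, Gpsm2 was the 1 that fell. It encodes a protein with GoLoco motifs that binds GDP-bound G alpha i and takes part in spindle orientation, and it stood at -0.58 ± 0.09 (1.49-fold, limma adjusted p = 0.000997, negative on 6 of 6 arrays). Of 2 arrestin-fold genes tested, Arrdc2 fell (-0.56 ± 0.06, 1.48-fold, adjusted p = 0.000759), with adjusted p = 0.1 on the Cy5 arrays alone, 0.104 on the Cy3 arrays alone and 0.077 without the array of set 2 with treated RNA in Cy5.

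**Figure D4:**
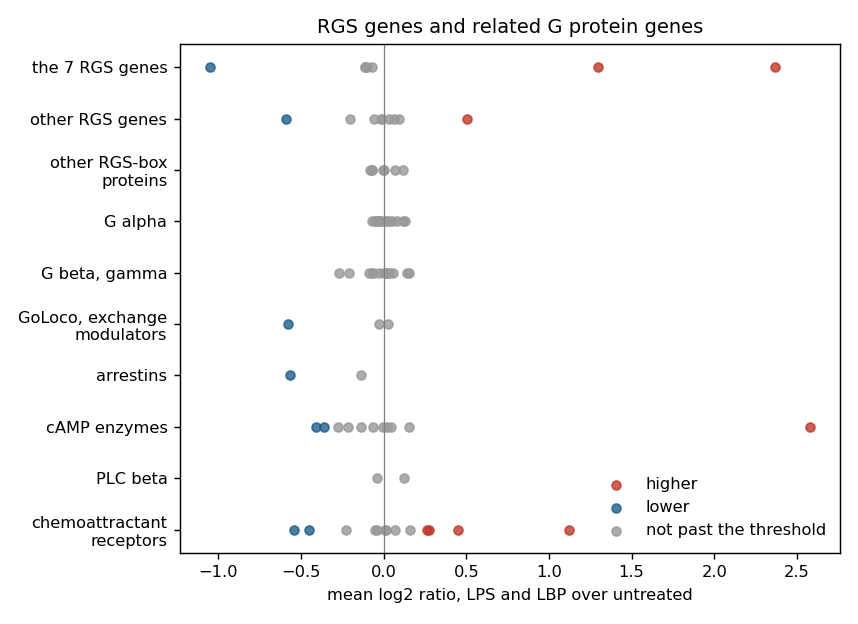
Mean log2 ratio of LPS and LBP over untreated cells (horizontal axis) for each tested gene of the 7 RGS genes and of 9 lists of related genes (vertical axis), with genes past the threshold in red (higher) or blue (lower) and others in grey. The G alpha and the G beta and gamma subunits stay within 0.27 of 0, while Rgs16 and the phosphodiesterase gene Pde4b exceed 2.

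The enzymes that make and break down cyclic AMP had 1 gene that rose and 2 that fell among 11 tested. The share called over all features was 14.8%. Pde4b, a cyclic AMP phosphodiesterase, rose 5.98-fold (2.58 ± 0.13, adjusted p = 9.16e-06, 6 of 6 arrays). The adenylyl cyclase genes Adcy6 (-0.41 ± 0.08, adjusted p = 0.00348) and Adcy9 (-0.36 ± 0.08, adjusted p = 0.00599) fell by 1.33-fold and 1.28-fold. Adcy6 was negative on 6 of 6 arrays and Adcy9 on 5. Neither was past the threshold without set 3 (adjusted p = 0.06 and 0.0781) or without the array of set 2 with treated RNA in Cy5 (0.124 and 0.466).

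Receptors for attractants that act through G alpha i had 4 genes that rose and 2 that fell among 13 tested. The share called over all features was 14.8%. C3ar1, the receptor of complement fragment C3a, rose 2.17-fold (1.12 ± 0.08, adjusted p = 6.48e-05, 6 of 6 arrays). The chemokine receptor gene Cxcr3 fell 1.46-fold (-0.54 ± 0.09, adjusted p = 0.00129) and the ADP receptor gene P2ry12 fell 1.37-fold (-0.45 ± 0.14, adjusted p = 0.00555), both being negative on every array. With zeros kept as ratios of 0 in place of missing values, C3ar1 stood at 0.56 and Cxcr3 at -0.29 (adjusted p = 0.0511). P2ry12 had adjusted p = 0.228 without the array of set 2 with treated RNA in Cy5. The other genes that rose were Ptafr (0.45 ± 0.17), Fpr2 (0.28 ± 0.15) and Cxcr2 (0.26 ± 0.15), receptors for platelet-activating factor, formylated peptides and chemokines. Ptafr was positive on 6 of 6 arrays, Fpr2 on 4 and Cxcr2 on 5. Fpr2 and Cxcr2 were past the threshold in 1 of 9 fits that left out a set or an array, and Ptafr in 4 of 9, with adjusted p reaching 0.783, 0.29 and 0.189.

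The genes with ratios nearest to those of Rgs16, Rgs1 and Rgs14 were found by Euclidean distance over the 6 arrays, among 1430 other named genes past the threshold. For Rgs16 they were Pde4b (distance 0.56), the adaptor gene Traf1 (0.62, mean 2.59 ± 0.23) and Slfn2 (0.77, mean 2.59 ± 0.16). For Rgs1 they were the zinc finger gene Zbtb22 (distance 0.43, mean 1.33 ± 0.11), the kinase gene Map3k8 (0.58, mean 1.31 ± 0.12) and Tnfsf9, the ligand of a costimulatory receptor (0.58, mean 1.32 ± 0.07). Zbtb22 shared the low value of Rgs1 on the array of set 2 with treated RNA in Cy5, 0.64. For Rgs14 they were the TGF-beta receptor gene Tgfbr2 (distance 0.20, mean -1.03 ± 0.03), the iron exporter gene Slc40a1 (0.23, mean -1.03 ± 0.03) and the nuclear receptor gene Nr0b2 (0.29, mean -0.96 ± 0.06). With zeros kept as ratios of 0, Tgfbr2 stood at -0.51. The points of such a distance share the same arrays, so it says only that the ratios were alike there.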

How the data were processed

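The authors deposited a log2 ratio of the channels for each of 16281 probes on each array. That the base is 2 was read from the decimals, which have the form of log10 ratios turned into log2 for 87.3% to 92.8% of the non-zero values per array. How spots were corrected for background and dyes normalized, and which channel is on top, is not given in the sources used here. Cy5 over Cy3 is the likely direction by the channel labels. Array medians ran from 0.0028 to 0.016. No spot intensity was used, which leaves signal over background unknown; precision is limited by the number of arrays.

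Exact zeros (9.12% to 12.4% of an array) were treated as missing. Ratios of arrays with treated RNA in Cy3 were turned in sign, probes measured on all arrays were averaged per gene, and arrays of the same set were averaged. A two-sided limma test (version 3.58.1, R 4.3.3, eBayes) asked whether the mean of 3 sets differs from 0, with Benjamini-Hochberg adjustment. Its eBayes step drew each variance toward one shared over all features, with 4.16 prior degrees of freedom. The fit was first run on simulated sets with independent normal spread and planted changes. That run checks the code and says nothing on the p-values of these arrays. The pairing by set number comes from the labels. In the ratios as deposited, the arrays of a set deviated together from their orientation's means, with correlations over features of 0.40, 0.43 and 0.14 for sets 1, 2 and 3. With the signs turned, limma's consensus correlation within sets was -0.44. Averaging a pair thus cancels part of the spread between its arrays, and the SD over sets can be the smaller. For Rgs4, arrays ran from -0.71 to 0.80 and the SD over sets was 0.03. Probe names come from the platform annotation (13738 probes with 1 symbol, 52 with several, 2491 with none). All 7 symbols are in RefSeq's GRCm38.p6 annotation. No build is named for the array.

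The named genes are the 7 RGS genes, every other tested RGS gene, up to 6 genes past the threshold in each list of related genes (largest mean ratio first), and the 3 genes nearest to each of Rgs16, Rgs1 and Rgs14. The neighbours of Rgs14 and the values of Gnb5, Gng3 and Gngt2 were added after their values were seen. The genes and lists were chosen with earlier results of these data known.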

Additional observations from a re-analysis of the deposited data

Results flagged for a closer look

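Rgs2 drew attention because its arrays with treated RNA in Cy5 were all negative and those with it in Cy3 all positive. The mean ratio before the signs were turned, which holds what follows the dye, was -0.20 (limma adjusted p = 0.174). That test called 0% of features, and the part of the dye in this split was not tested further. The dye-balanced mean of -0.10 lay closer to 0 than -0.20.

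For Rgs18, the array of set 1 with treated RNA in Cy5 (0.21) stood apart from the other 5, which lay between -0.27 and -0.10. Its gap to the nearest array was 0.636 of the range of all 6, above Dixon's 95% critical value, which chance passes in about 1 in 20 groups. Without that array the mean was -0.19 (adjusted p = 0.107), on the same side of the threshold.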

How the results depend on the processing

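Rgs16, Rgs1 and Rgs14 kept their direction and stayed past the threshold in all alternatives run, with ratios of 2.02 to 2.59, 1.09 to 1.50 and -1.09 to -1.03 and adjusted p of at most 0.0192, 0.0266 and 0.0178. Rgs2, Rgs10, Rgs18 and Rgs19 passed in none. Rgs2 turned to 0.10 with only the Cy3 arrays, for which the cause was not tested. Leaving out a set or an array gave 533 to 1685 features past the threshold, 352 to 854 higher and 181 to 831 lower. The total of 1663 (826 higher, 837 lower) became 962 (492, 470) with zeros kept as ratios, 639 (347, 292) with only Cy5 arrays, 655 (408, 247) with only Cy3 arrays and 394 (264, 130) when tested against a 1.2-fold change. With the set as replicate block on 6 arrays (consensus correlation -0.44) it was 2282, and without a block 1376. Against the averaged sets, the call of Fpr2 was lost with the block, and those of Adcy9, Ptafr and Fpr2 without it. The other 42 and 40 of 43 genes compared kept theirs. The difference of Rgs1 from Rgs14 was 2.13 with only Cy5 arrays and 2.56 with only Cy3 arrays, and that of Rgs16 was 3.59 with arrays scaled to one spread. Among RGS genes near 0, signs turned for Rgs4 to -0.0012 with zeros kept, -0.0021 with incomplete probes and -0.29 with only Cy5 arrays, for Rgs12 (0.012) and Rgs20 (-0.055) with only Cy5 arrays, and for Rgs6 (0.12) with only Cy3 arrays. Leaving out a set or an array moved Rgs4 between -0.22 and 0.28, Rgs6 between -0.088 and 0.060, Rgs17 between -0.00059 and 0.19, Rgs20 between -0.0054 and 0.13 and Rgs5 between -0.041 and 0.019. The causes were not tested.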
